A study of Mus musculus and Rattus norvegicus with 96 samples.

Results

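The liver-restricted genes of the rat panel are 104 genes whose mean level was at least 100 CPM (a gene's counts over the library's total, in parts per 1e6) in frozen liver and below 5 CPM in frozen lung. They were selected on those measured values, among 28756 genes listed in both rat count tables, of which 2798 had a count in at least 1 of the 35 libraries used. Frozen levels of these genes are therefore given as a description and were not tested between groups. Among genes that met the lung criterion, Igfals (102 CPM in frozen liver) and Slc6a13 (106 CPM) lay just inside the liver limit, and LOC100911558 (99.97 CPM) and Pzp (94.2 CPM) lay just outside it. At the lung limit Itih1 (4.73 CPM in frozen lung) and Aass (4.35 CPM) were inside, and Hp (5.47 CPM) and Apoh (5.85 CPM) were outside.

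All animals were male rats given vehicle only, with 6 libraries per group. Liver came from the F344 strain and lung from WKY. The frozen groups (FR) entered the assay as RNA from frozen tissue. In the FR > FFPE groups of both tissues, frozen tissue was placed in 10% neutral buffered formalin for 18 to 24 h and embedded in paraffin. Liver FFPE went directly into the same fixative for 18 to 24 h, and lung FFPE 1 yr went directly into it for 1 year. Embedded tissue was assayed as a deparaffinised lysate without RNA purification. Tissue, strain and count table changed together and cannot be told apart, and the same holds for frozen tissue and purified RNA. The labels do not say whether frozen and embedded libraries came from the same rats, so p-values measure the spread between these libraries. Expression was measured by TempO-Seq, in which pairs of detector oligos that anneal side by side on a transcript are ligated, amplified and sequenced. No probe sequence or rat promoter was used here.

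Total counts were 3040910 to 3970190 in liver FR, 2156620 to 3898090 in liver FR > FFPE and 139475 to 889128 in liver FFPE. Lung FR held 2013610 to 2505950 counts in 5 libraries, lung FR > FFPE 802686 to 1786810, and lung FFPE 1 yr 226751 to 1634580. Frozen lung library 54 held 12 counts and was left out throughout. The tissue labels were checked with markers of lung epithelium, of which 3 of 24 listed had a count. In the test between the FR > FFPE groups described below, 2 of these 3 were called lower in liver and 1 higher. The check thus rests on few genes that did not all go the same way. Lamp3, a gene of type II pneumocytes, averaged 7649 CPM in lung FR. It averaged 1945 CPM in lung FR > FFPE, 3293 CPM in lung FFPE 1 yr and at most 13.3 CPM in a liver group. A single count was worth 7.17 CPM in the shallowest liver FFPE library and 4.41 CPM in the shallowest lung FFPE 1 yr library, so levels near 5 CPM rest on very few counts there. In bulk tissue, fewer cells of a type and less RNA per cell cannot be told apart.

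Hepatocytes, the main cells of the liver, make most of the proteins of blood plasma, take up and conjugate foreign compounds, oxidise them with cytochromes P450, and turn cholesterol into bile acids. Lung does not normally make these products, apart from some drug-metabolising enzymes of its own. Of the 104 genes, 15 encode secreted plasma proteins, 11 are cytochrome P450 enzymes, 10 belong to complement and coagulation, and 9 to glucose, fructose and fatty acid metabolism. A further 8 are enzymes of amino acid breakdown, 6 are conjugation and other detoxification enzymes, 5 each belong to lipid transport and to bile acid and sterol metabolism, 4 are hormones and binding proteins, and Hnf4a is the single transcription factor. The lists overlap, and 33 genes were in none of them. None was in the marker lists of lung epithelium, endothelium, macrophages, fibroblasts, bile duct, blood or exocrine pancreas.

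In every liver library all 104 genes had counts, and the ranges of their share of the library overlapped between preparations. They held 19.9 to 22.8% (median 20.6%) of counts in liver FR, 20.7 to 26.8% (median 25.2%) in liver FR > FFPE and at least 18.8% (median 21.0%) in liver FFPE. Frozen lung held almost none of them. Their share there was 0.00660 to 0.0128%, and 50 to 69 of the 104 genes had a count in a given library. Embedded lung did hold them. The share was 1.17 to 1.70% (median 1.40%) in lung FR > FFPE and 0.410 to 1.30% (median 0.684%) in lung FFPE 1 yr, and no embedded lung library overlapped the frozen ones. The median gene had 0.485 CPM in lung FR, 46.5 CPM in lung FR > FFPE and 35.6 CPM in lung FFPE 1 yr, against 666, 824 and 771 CPM in liver FR, FR > FFPE and FFPE.

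**Figure D1:**
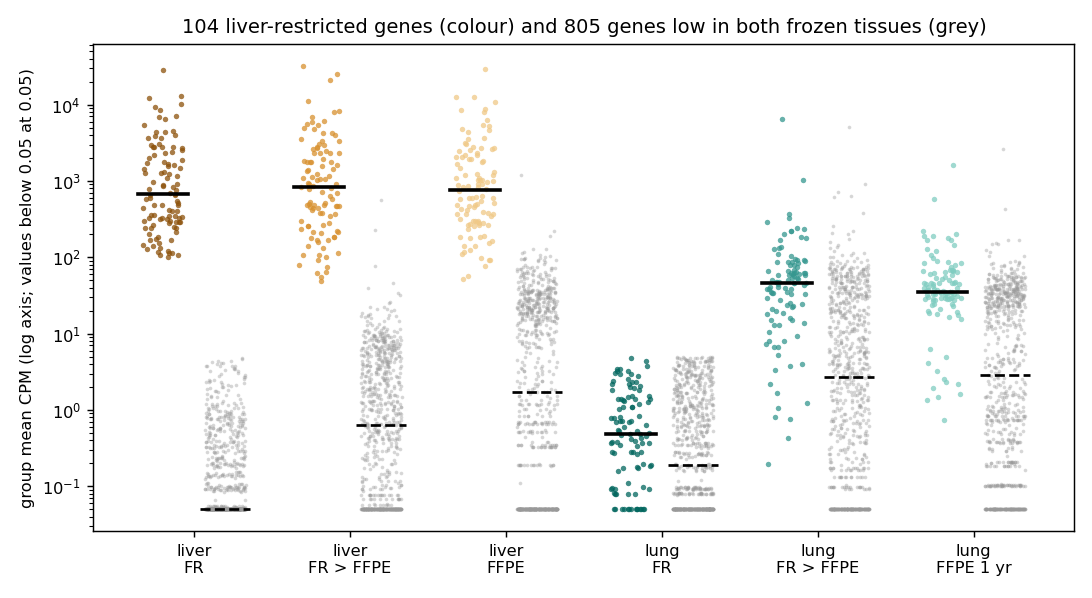
Mean CPM of each gene in the 6 groups (log axis, values below 0.05 CPM drawn at 0.05), with the 104 liver-restricted genes in colour and 805 genes below 5 CPM in both frozen tissues in grey. Solid bars mark the median of the liver-restricted genes (0.485 CPM in lung FR, 46.5 CPM in lung FR > FFPE) and dashed bars the median of the grey genes (0.191 and 2.73 CPM), so both sets stood higher in embedded than in frozen lung.

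A gene was counted as seen in an embedded lung group when its mean was at least 5 CPM and at least 4 libraries had a count. By this rule 93 of 104 genes were seen in lung FR > FFPE, where 51.6% of the 1005 genes below 5 CPM in frozen lung were seen. In lung FFPE 1 yr 92 of 104 were seen, against 53.8% of the same 1005 genes. The lower quartile of those 1005 genes was below 0.38 CPM in every group, which lowers both shares. Of the 104 genes, 91 were seen in both groups, 10 in neither, Slc10a1 and ste2 only in FR > FFPE and Apoc3 only in FFPE 1 yr. Most seen genes sat in a band of moderate levels. In lung FR > FFPE 68 genes lay between 10 and 100 CPM and 18 were at or above 100 CPM, and in lung FFPE 1 yr 79 and 13.

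Genes near 0 in both frozen tissues also had more counts in embedded tissue. This comparison set, chosen after the data were seen, holds 805 genes with a count in some library and means below 5 CPM in frozen liver and in frozen lung. Their median was 0.191 CPM in lung FR, 2.73 CPM in FR > FFPE and 2.87 CPM in FFPE 1 yr, and 43.0% and 45.8% of them were seen by the same rule. Their 90th percentile in lung FR > FFPE was 57.5 CPM, a level that 42 of the 104 liver-restricted genes passed and 62 did not. In liver the share of counts in this set was 0.0248 to 0.0299% in FR, 0.192 to 0.562% in FR > FFPE and 0.630 to 2.83% in FFPE. In lung it was 0.0707 to 0.0722% in FR, 1.73 to 2.56% (median 2.19%) in FR > FFPE and 0.728 to 3.13% (median 1.42%) in FFPE 1 yr. The larger set thus also rose from frozen to embedded lung, and the rise was not particular to the 104 genes.

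Levels in embedded lung followed those in liver only loosely. Across the 104 genes the Spearman correlation of mean CPM was 0.21 between liver FR > FFPE and lung FR > FFPE, and 0.91 between liver FR and liver FR > FFPE. It was 0.84 between the embedded lung groups. These are descriptions over genes, which share libraries and are not independent. The level in lung FR > FFPE had a median of 3.79% of that in liver FR > FFPE and ranged from 0.0208% to 471%, whereas frozen lung never exceeded 2.11% of frozen liver.

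**Figure D2:**
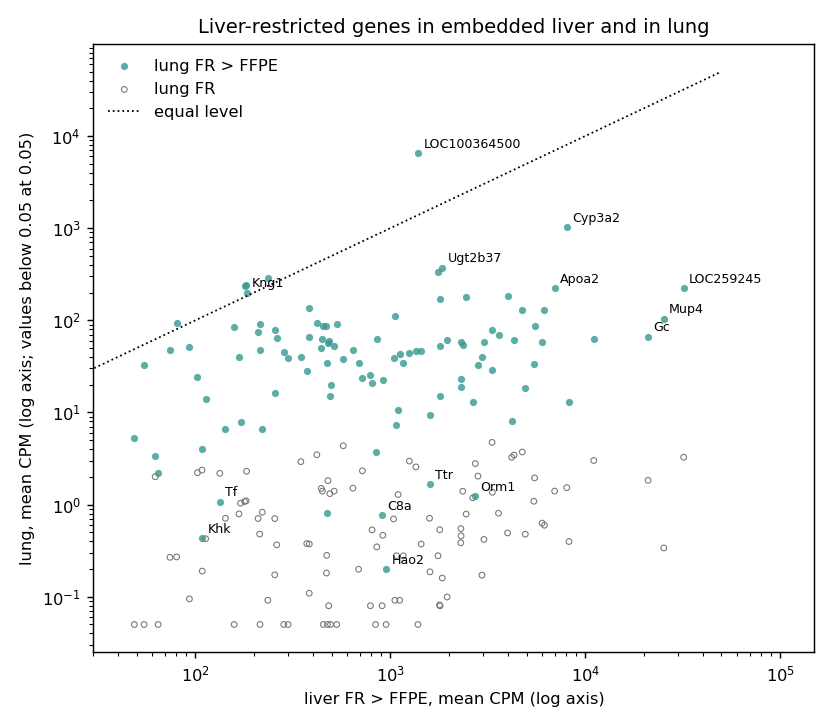
Mean CPM of the 104 genes in liver FR > FFPE (horizontal, log axis) against lung FR > FFPE (filled) and lung FR (open; log axis, values below 0.05 CPM drawn at 0.05). Most filled points lie in a flat band between 10 and 100 CPM, LOC100364500 lies above the line of equal level, and Orm1, Ttr, C8a, Khk, Tf and Hao2 stayed near the frozen values.

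By role, the genes differed in how many were seen and at what level. All 11 P450 genes and all 8 amino acid enzymes were seen in both embedded lung groups. Of the 15 plasma protein genes 11 were seen in each group and none reached 100 CPM in either. Of the 10 complement and coagulation genes 9 were seen in each group, of the 9 genes of sugar and fatty acid metabolism 7, of the 6 conjugation enzymes 5, and of the 4 hormones and binding proteins 3. Lipid transport had 4 of 5 genes seen in FR > FFPE and 5 of 5 in FFPE 1 yr, bile acid and sterol metabolism 5 of 5 and 4 of 5, and Hnf4a was seen in both. The 33 genes in no list had 9 at or above 100 CPM in lung FR > FFPE and 7 in lung FFPE 1 yr.

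Plasma protein genes at the top of the liver list show the band. Gc, the vitamin D binding protein of plasma and the highest of all 104 in frozen liver, had 26034 to 29649 CPM (median 28356) in liver FR. In frozen lung its 5 libraries had 1.37, 3.59, 1.22, 2.98 and 0 CPM. It had 31.2 to 105 CPM (median 68.8) in lung FR > FFPE, above every frozen lung library and far below every liver library. Mug1, murinoglobulin, a protease inhibitor of rodent plasma, had 11092 to 13206 CPM in liver FR and 58.8 to 112 CPM in lung FR > FFPE. Crp, C-reactive protein, had 5572 to 7365 CPM in liver FR and a median of 55.9 CPM in lung FR > FFPE. Their ranges in frozen liver did not overlap and their ranges in embedded lung did. Apoa2, an apolipoprotein of high density lipoprotein, was higher there, at 130 to 282 CPM (median 241).

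LOC259245, which overlaps the major urinary protein gene Mup4 on chromosome 5 (77245143 to 77492014 of rn6), had 9503 to 19303 CPM in liver FR, 18835 to 53496 in liver FR > FFPE and 149 to 290 in lung FR > FFPE. Mup4 had 1879 to 3831 CPM in liver FR, 19555 to 33234 in liver FR > FFPE and 9250 to 15180 in liver FFPE, so neither embedded liver group overlapped the frozen one. In lung FR > FFPE Mup4 had 64.4 to 129 CPM. Counts of both genes were not whole numbers, so the split of reads between them and other copies is uncertain. Rup2, another urinary protein gene, had whole counts, with 7113 to 11997 CPM in liver FR and 107 to 162 CPM in lung FR > FFPE.

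Among the P450 genes 5 of 11 were at or above 100 CPM in lung FR > FFPE and 4 in lung FFPE 1 yr. Cyp3a2, a steroid and drug hydroxylase that male rats express more than females, had 6261 to 9148 CPM (median 8290) in liver FR > FFPE. In the 5 frozen lung libraries it had 0, 4.79, 0, 0 and 2.84 CPM, and in lung FR > FFPE 808 to 1207 CPM (median 1013). Every embedded lung library thus stood far above every frozen one, at 12.8% of the liver mean. Ugt2b37, a glucuronosyltransferase, had 866 to 2700 CPM in liver FR > FFPE and 299 to 495 CPM (median 358) in lung FR > FFPE, with a count in 1 of 5 frozen lung libraries. Cyp2c6v1, a P450 of the 2C family, had 1534 to 2064 CPM in liver FR > FFPE and 234 to 399 CPM in lung FR > FFPE. Cyp3a2 and Cyp3a23/3a1 overlap in position, Ugt2b37 overlaps Ugt2a1, and counts of these genes were not all whole, so part of each value may belong to a neighbour.

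In all, 6 genes had a mean CPM in lung FR > FFPE at or above that in liver FR > FFPE. With TMM scaling the direction turned for 5 of them (Kng1, Hsd3b5, LOC100912485, Sult1c2a and RGD1559960), which were called higher in liver by 1.30 to 1.53 on the log2 scale. LOC100364500 was the most extreme. It lies on chromosome 20 (2704148 to 2707121 of rn6, minus strand) inside the span given for complement gene C4a. It had 378 to 552 CPM in liver FR, 1294 to 1562 in liver FR > FFPE and 1549 to 2007 in liver FFPE, and less than 0.001 CPM in each frozen lung library. In lung FR > FFPE it had 4414 to 8035 CPM (median 6976), which is 471% of the liver mean, and in lung FFPE 1 yr 798 to 2650 CPM (median 1545). Its counts were not whole, and over 35 libraries its log2(CPM + 1) was most like that of RT1-CE10, a class I histocompatibility gene (Pearson r = 0.996, a description), which had 0 CPM in lung FR and 948 CPM in lung FR > FFPE. The value of LOC100364500 is therefore uncertain. Sult1c2a, a sulfotransferase, had 155 to 231 CPM in liver FR > FFPE and 178 to 276 CPM in lung FR > FFPE, and RGD1559960 had nearly the same values in every library. LOC100912485 had 102 to 388 CPM and 243 to 345 CPM in the same groups, with shared reads as well.

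Kng1 and Hsd3b5, the other members of that group of 6, had whole counts. Kng1, kininogen, a precursor of the kinin peptides, had 118 to 242 CPM in liver FR > FFPE and 145 to 239 CPM in lung FR > FFPE, so the tissues overlapped. Hsd3b5, an enzyme of steroid metabolism, had 23.7 to 129 CPM in liver FR > FFPE and 58.8 to 115 CPM in lung FR > FFPE. It overlaps Hsd3b2 in position.

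The 10 genes seen in neither embedded lung group were Apcs, C8a, Car14, Hao2, Khk, Orm1, Prlr, Sult1c3, Tf and Ttr. Orm1, orosomucoid, an acute phase plasma protein, had 5695 to 8467 CPM (median 6895) in liver FR and 906 to 6187 CPM (median 2608) in liver FR > FFPE. In frozen lung it had 3.20, 3.99, 0.814, 4.97 and 0.948 CPM, and in lung FR > FFPE 0 to 3.56 CPM with 3 libraries at 0. No lung FR > FFPE library thus exceeded the highest frozen one. Hao2, a peroxisomal 2-hydroxyacid oxidase, had a median of 915 CPM in liver FR > FFPE and a total of 2 counts in the 6 lung FR > FFPE libraries. The pooled ratio of liver to lung was 3664, with an exact 95% counting interval of 1014 to 30258. Both lung counts of Hao2 were in library 57. Intervals of this kind pool the libraries and leave out the spread between them. Reads were not tied to single molecules, so even the counting error may be larger. C8a, a chain of the terminal complement complex, gave 15201 counts in liver FR > FFPE and 6 in lung FR > FFPE, while C8b, its partner chain, had 39.2 to 69.4 CPM in lung FR > FFPE. Ttr, transthyretin, the carrier of thyroid hormone and retinol binding protein, had 1064 to 2217 CPM in liver FR > FFPE and 0 to 5.93 CPM in lung FR > FFPE. Khk, ketohexokinase, which starts fructose breakdown, gave 3 counts in lung FR > FFPE in all, and Tf, transferrin, gave 6.

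**Figure D3:**
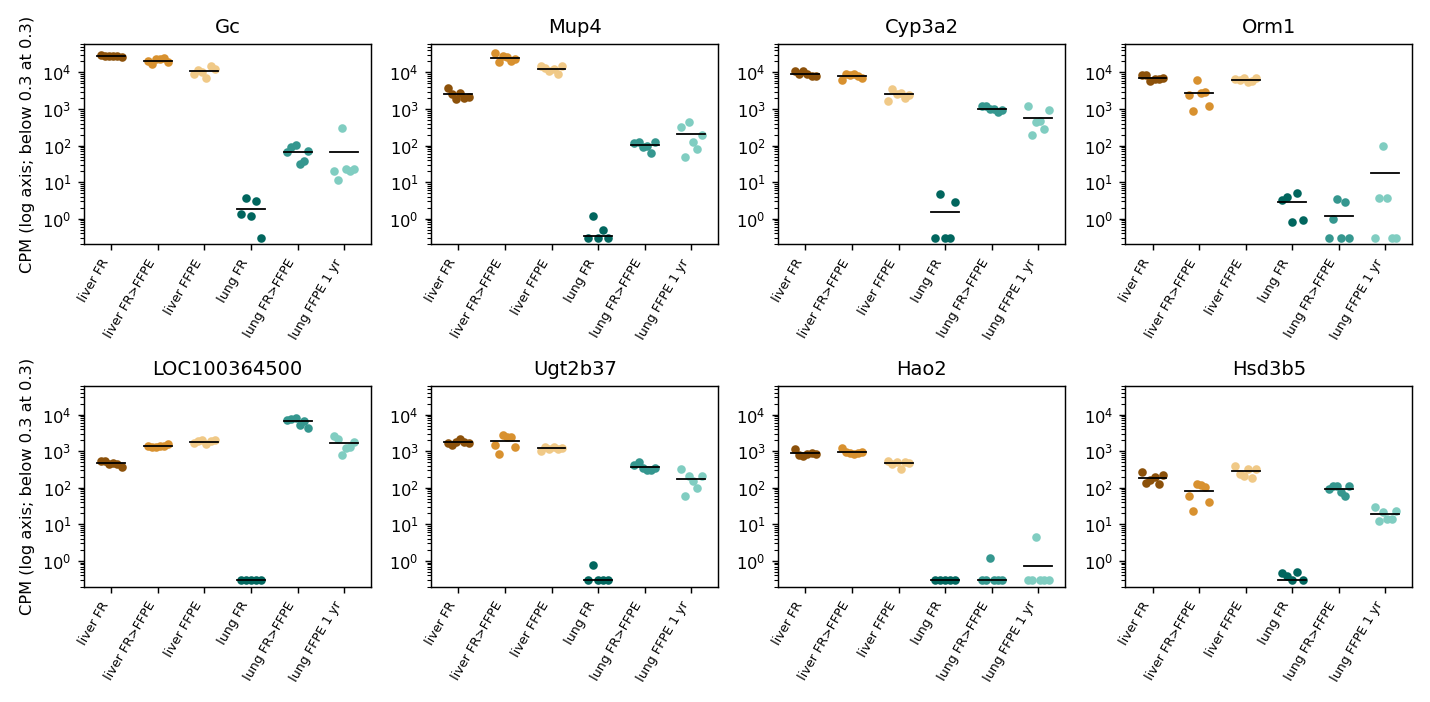
CPM of 8 of the genes in each library (points, log axis, values below 0.3 CPM drawn at 0.3), with group means as bars. Gc, Mup4, Cyp3a2, Ugt2b37 and Hsd3b5 stood above frozen lung in every embedded lung library, LOC100364500 stood higher in embedded lung FR > FFPE than in any liver library, and Orm1 and Hao2 stayed near 0 except for 1 library of lung FFPE 1 yr.

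Whether these genes were still higher in liver than in lung after embedding was tested between the FR > FFPE groups, which the selection did not use. Of the 104 genes, 11 (Apcs, C8a, Car14, Hao2, Khk, Orm1, Prlr, Sult1c3, ste2, Tf and Ttr) had 2 to 41 counts in the 6 lung FR > FFPE libraries together and were not kept by the filter on low counts in the lung fit. They entered this comparison through their liver counts, so they had to differ and are left out of the counts of calls here. The other 93 were kept by the lung fit, so they still include genes that entered this comparison through liver. Apoc3, with 29 counts in the 6 lung FR > FFPE libraries, is an example. Slc10a1, Hpx, Slc6a13, Igfals and Proc passed largely through liver too. Counts over the 93 genes are thus partly fixed in advance. With TMM scaling (edgeR's correction of library sizes), 92 of the other 93 genes were higher in liver than in lung and 1, LOC100364500, was lower by edgeR's quasi-likelihood test at a Benjamini-Hochberg adjusted p under 0.05. Of all 2302 genes tested, 76.7% were called, 26.1% higher and 50.6% lower. The median log2 difference was 6.10 over the 93 genes and −0.64 over all genes. In CPM, all 6 liver libraries stood above all 6 lung libraries for 82 of the 93 genes, against 10.6% of all genes, and below them for 1, against 70.6%. Scaling by total counts moved the median of all genes to −2.32 and left 86 of the 93 genes higher and 1 lower. The share of all genes called was not computed for this scaling. For Kng1, Hsd3b5, LOC100912485, Sult1c2a and RGD1559960 the log2 difference was between 1.30 and 1.53 with TMM and between −0.39 and −0.13 with total counts, so their direction depended on the scaling. LOC100364500 was lower in liver by 0.55 on the log2 scale (SE 0.25, adjusted p = 0.0417) with TMM and by 2.24 (adjusted p = 5.21e-10) with total counts. With TMM the call was kept without liver library 73 or 74 or lung library 58 or 60 and lost in the other 8 fits that left out 1 library. Neither the fit to the 2 groups alone (edgeR, adjusted p = 0.389) nor DESeq2 (adjusted p = 0.637) called it. Cyp3a2 was higher in liver by 4.66 on the log2 scale with TMM and by 2.96 with total counts.

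Direct fixation of liver was then compared with fixation after freezing. With TMM scaling 73 of 104 genes were lower in FFPE than in FR > FFPE and 1 was higher (edgeR, adjusted p under 0.05), where 53.8% of the 2281 genes tested were called, 24.0% lower and 29.9% higher. The counts of calls depended on the scaling. With total counts 28 genes were lower and 23 higher, 29 genes were called in the same direction under both scalings, and Slc2a2 and LOC100364500 were called in opposite directions. The share of all genes called with total counts was not computed. Counts of calls with total counts, here and by list below, therefore show only how the calls depend on the scaling. Total counts moved the median log2 difference of all genes from 0.07 to 0.98. Relative to that median the 104 genes lay at −0.93 with TMM and −0.94 with total counts, and 94 of 104 lay below it in both. In CPM, 18 genes had all FFPE libraries below all FR > FFPE libraries and 14 had them all above, against 2.28% and 33.8% of all genes. Over the same fit, 205 of 338 tested genes of the comparison set near 0 in both tissues were higher in FFPE and 6 were lower. The upper quartile of all 805 genes of that set was 3.89 CPM in FR > FFPE and 23.1 CPM in FFPE. Many therefore passed the filter on low counts through FFPE. The split was thus partly fixed in advance and nothing is read from it. Alb, the most abundant liver gene and no member, averaged 152964 CPM in FR > FFPE and 92199 CPM in FFPE. The 8 markers of blood cells summed to 2588 to 7495 CPM in FR > FFPE and 1073 to 2646 CPM in FFPE, and the 7 of fibroblasts and smooth muscle to 1015 to 4291 CPM and 1298 to 1563 CPM. With TMM, 2 of the 8 blood markers were called higher in FFPE and 2 lower. Of the 7 markers of fibroblasts and smooth muscle, 3 were called higher and 3 lower. Their part in the differences was not tested, and the FFPE libraries were also the shallowest.

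**Figure D4:**
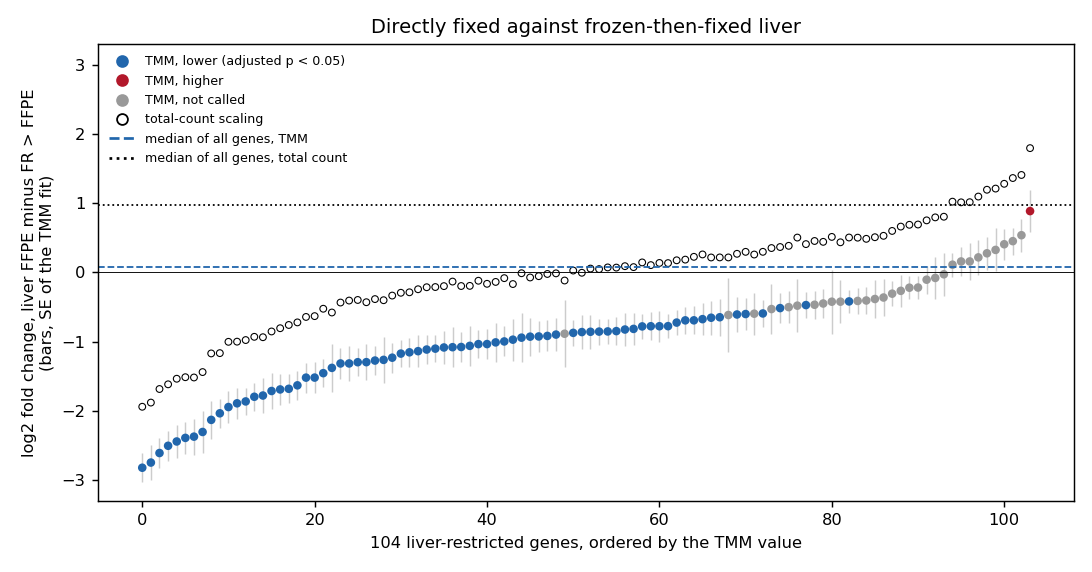
Log2 fold change of liver FFPE minus FR > FFPE for the 104 genes, in the order of the TMM value, with TMM values filled (bars, SE), total-count values open and dashed and dotted lines at the median of all genes under each scaling (0.07 and 0.98). Filled and open points differ by a nearly constant step, and 94 genes lie below the median line of their own scaling.

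P450 genes of the 3A family were among the 5 largest falls. Cyp3a23/3a1 had 1812 to 3521 CPM (median 2392) in FR > FFPE and 514 to 772 CPM (median 613) in FFPE, with no overlap. It fell by 2.82 on the log2 scale (SE 0.21, adjusted p = 3.52e-10). Cyp3a2 had 6261 to 9148 CPM in FR > FFPE and 1607 to 3628 CPM (median 2510) in FFPE, and fell by 2.61 (SE 0.22, adjusted p = 2.03e-09). With total counts the values were −1.94 and −1.69. With TMM 10 of the 11 P450 genes were lower in FFPE and none was higher, and with total counts 4 were lower and 1 higher. Cyp1a2, which oxidises caffeine and aromatic amines, fell by 2.13 with TMM and stood at −1.17 with total counts. Among the 27 tested genes of the whole P450 list, members or not, 12 were lower and 4 higher with TMM.

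Of the plasma protein genes 13 of 15 were lower and none higher with TMM, and 9 lower and 2 higher with total counts. In the whole list 21 of 27 were lower and 2 higher with TMM. Apcs, serum amyloid P component, had 421 to 590 CPM in FR > FFPE and 64.5 to 189 CPM in FFPE and fell by 2.75 (SE 0.26, adjusted p = 9.84e-09). Crp went from 3572 to 7859 CPM down to 1470 to 2663 CPM and fell by 2.37. Gc went from 16680 to 24062 CPM down to 6883 to 15231 CPM and fell by 1.78. With total counts the values of Apcs, Crp and Gc were −1.88, −1.52 and −0.94. Serpinc1, antithrombin, had 3123 to 4100 CPM in FR > FFPE and 889 to 1534 CPM in FFPE. Slc10a1, the sodium taurocholate cotransporter that takes bile acids up from blood, fell by 2.44 (SE 0.24, adjusted p = 2.77e-08), from 736 to 1578 CPM down to 288 to 448 CPM. For each of these 5 genes the FFPE and FR > FFPE libraries did not overlap.

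In complement and coagulation the scalings gave opposite balances, with 4 of 10 members lower and none higher with TMM and 2 lower and 5 higher with total counts. C8a stood at 749 to 1163 CPM in FR > FFPE and 2043 to 2681 CPM in FFPE (log2 difference 0.45, SE 0.19, adjusted p = 0.0519 with TMM and 1.36 with total counts). Amino acid enzymes had 7 of 8 lower with TMM and 1 with total counts. Conjugation enzymes had 5 of 6 lower with TMM and 3 with total counts, with Sult1b1, a sulfotransferase, at −1.80 and −0.93. Neither list had a member called higher under either scaling. With TMM, enzymes of sugar and fatty acid metabolism had 5 of 9 lower, bile acid genes 3 of 5, lipid transport genes 4 of 5 and hormones and binding proteins 2 of 4, and none higher. With total counts the same lists had 2, 1, 1 and 0 lower and 4, 2, 1 and 1 higher. Hnf4a, a nuclear receptor that drives hepatocyte genes, fell by 0.69 with TMM (adjusted p = 0.00605) and stood at 0.22 with total counts (adjusted p = 0.191). The only member called higher with TMM was Hsd3b5, with 23.7 to 129 CPM in FR > FFPE and 190 to 389 CPM in FFPE (log2 difference 0.89, SE 0.30, adjusted p = 0.0147), and it was called higher with total counts too (1.80).

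Against frozen liver, which the selection used, embedded levels are described without a test. In the TMM fit 42 of the 104 genes were at least 2-fold lower in FR > FFPE than in FR and 3 at least 2-fold higher, where 16.3% and 34.8% of the 2281 fitted genes were. In FFPE against FR the numbers were 76 and 0, against 24.4% and 40.1%. Nothing is read from these counts about the genes, and the scaling changed them. Ratios of mean CPM gave 14 lower and 18 higher for FR > FFPE, and 19 lower and 15 higher for FFPE. Mup4 had the highest ratio in both contrasts (log2 2.64 and 0.70 in the TMM fit), and Apom (1.23) and C8b (1.03) followed in FR > FFPE. Inhbc (−2.38), ste2 (−2.31) and Tf (−2.19) had the lowest values in FR > FFPE, and Serpina6 (−4.03), the corticosteroid binding globulin, Cyp3a2 and Cyp3a23/3a1 (−3.51 each) in FFPE. Serpina6 had 448 to 787 CPM in liver FR, 124 to 533 in FR > FFPE and 85.6 to 134 in FFPE.

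In lung, FFPE 1 yr was compared with FR > FFPE among the 93 genes that passed edgeR's filter on low counts. Of these, 30 were lower and 5 higher after a year in formalin (edgeR, adjusted p under 0.05), where 31.0% of the 2322 genes tested were called, 17.6% lower and 13.4% higher. Some genes passed the filter through the counts of a single group, which favoured a call in that direction. The median log2 difference was −0.52 over the 93 genes and −0.05 over all genes. Here the scalings differed less, and total counts gave 18 lower and 4 higher (share of all genes called not computed). The fit to these 2 groups alone gave 21 lower and 1 higher of 88 genes. In CPM 4 of the 93 genes had all FFPE 1 yr libraries below all FR > FFPE libraries and 1 had them above, against 4.57% and 3.79% of all genes.

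Falls were found among the P450 and conjugation genes, where 6 of 11 P450 members and 4 of 5 conjugation members were lower and none was higher (5 and 3 with total counts). In the whole lists, members or not, 8 of 27 P450 genes were lower and 2 higher with TMM. Of 27 conjugation genes 12 were lower and 2 higher. Hsd3b5 had 58.8 to 115 CPM (median 102) in FR > FFPE and 12.7 to 29.4 CPM (median 18.1) in FFPE 1 yr, with no overlap, and fell by 2.41 (SE 0.23, adjusted p = 3.5e-06). LOC100364500 fell by 2.06 (SE 0.26, adjusted p = 5.41e-05). Cyp2c11, a P450 of male rat liver, had 47.0 to 71.4 CPM in FR > FFPE and 10.1 to 43.0 CPM in FFPE 1 yr and fell by 1.91 (SE 0.26, adjusted p = 5.41e-05). Apoa2 fell by 1.88. Hsd3b5 was thus lower in directly fixed lung and higher in directly fixed liver than in the respective FR > FFPE group, but fixation lasted for different times in these tissues and the contrasts were not compared by a test.

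The 5 genes called higher in FFPE 1 yr had low levels in lung. Apoc3 had too few counts in FR > FFPE to pass the filter on low counts and entered through FFPE 1 yr. Slc6a13, Igfals and Proc also passed only with their FFPE 1 yr libraries. For these genes a call of higher was thus favoured in advance, and their p-values are given as a description. Apoc3, an apolipoprotein that inhibits lipoprotein lipase, had 2.08 to 5.93 CPM in FR > FFPE and 7.60 to 61.7 CPM (median 22.9) in FFPE 1 yr, with no overlap (log2 difference 2.63, SE 0.44, adjusted p = 0.000448). Slc6a13, a GABA transporter, had 1.68 to 12.9 CPM and 7.60 to 58.9 CPM (2.16, SE 0.51, adjusted p = 0.0036). Igfals (1.47, adjusted p = 0.0241), Proc, protein C (1.41, adjusted p = 0.0269), and Slc26a1 (1.01, adjusted p = 0.0416) made up the rest. In the fit to the 2 groups alone only Slc26a1 kept its call (adjusted p = 0.0489). Apoc3 and Slc6a13 did not pass its filter on low counts, and Igfals (adjusted p = 0.0516) and Proc (adjusted p = 0.0567) were not called. Proc was not called without library 61 (adjusted p = 0.0657) or 63 (adjusted p = 0.0695), nor Igfals without library 55 (adjusted p = 0.0527). Slc26a1 was not called with total counts (adjusted p = 0.0542) or without any 1 of libraries 55, 59, 61, 63, 65 and 66.

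Library 63 of lung FFPE 1 yr differed from the others in which of the genes it held. It had the fewest counts of its group (226751). Alb and Apoa1, strong liver genes that the selection left out, stood at 1191 and 494 CPM in it and at most at 102 and 190 CPM in the other 5 libraries. Gc had 304 CPM there (69 counts) and at most 23.5 CPM in the others, Hpx, hemopexin, 137 CPM and at most 11.3, and Orm1 97.0 CPM (22 counts) and at most 3.80. Its levels followed those of liver FR > FFPE with a Spearman correlation of 0.52 over the 104 genes, against 0.16 to 0.26 in the other 11 embedded lung libraries. Of the 104 genes 39 were higher in library 63 than in all 5 others. Library 61 had 63 such genes and the largest share of counts in the 104 genes (1.30%), with 20.4 CPM of Gc and no Orm1. It also had the largest share in the 805 genes near 0 in both frozen tissues (3.13%, against 0.728 to 2.04% in the other 5). The source of the liver genes in library 63 was not tested.

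**Figure D5:**
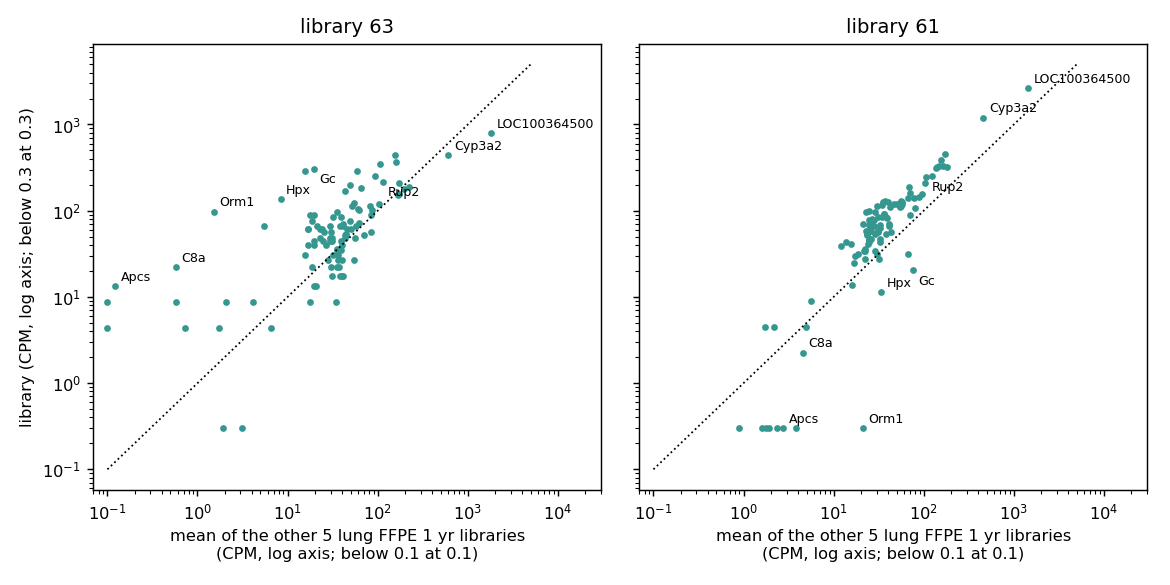
CPM of the 104 genes in lung FFPE 1 yr libraries 63 (left) and 61 (right) against the mean of the other 5 libraries of the group (log axes, low values drawn at 0.1 and 0.3, dotted line at equal level). In library 63 Gc, Hpx, Orm1, C8a and Apcs stand far above the line, and in library 61 most genes stand moderately above it while those 5 lie below. The mean drawn for library 61 includes library 63, which is high in those 5 genes.

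Without library 63 the lung comparison gave 33 lower and 3 higher. Gc stood at −0.42 on the log2 scale with it (adjusted p = 0.63) and −1.77 without it (adjusted p = 0.00173). Hpx stood at 1.23 with it and −0.07 without it and was not called in either fit. The number of genes seen in FFPE 1 yr remained 92 without library 63, all of them among the 92 seen with it.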

How the data were processed

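The authors deposited raw tables of estimated counts per gene for rat liver and rat lung, made from TempO-Seq reads of the s1500+ rat panel. The submitters' processing notes name CASAVA 1.8.2, STAR 2.5.3a, Partek and the build rn6. How they were applied to rat libraries, and the annotation, are not given in the sources used here. Of the values of genes with a count, 94.0% were whole to within 0.01, and 32 of the 104 genes had a count that was not. Their log2 tables were not used.

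CPM were formed with column totals. Counts were rounded, genes kept with filterByExpr, scaled with TMM and tested with the quasi-likelihood test of edgeR 4.0.16 (limma 3.58.1, R 4.3.3) with Benjamini-Hochberg adjustment over all genes tested. Liver and lung tables had separate fits of their 3 groups, and the embedded groups of both tissues a joint fit on shared genes. Frozen lung library 54 was below the minimum of 10000 counts. No replicate pair was identical, and chi-square over degrees of freedom was at least 2.56 in each. The test was tried on simulated data. Alternatives included DESeq2 1.42.0. Python 3.11.15 was used for levels and figures.

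The genes and lists were chosen with earlier results of these data known. Genes named are the 10 highest in frozen liver, the 5 largest called falls and rises of each test, the 10 highest in embedded lung, the neighbours of each limit, the 5 extremes of each contrast with frozen liver, and up to 4 examples per list, some of which are not reported here. Genes seen in neither or only 1 embedded lung group, C8b, Slc2a2 and genes of library 63 were named after their values were seen. A promoter search was planned and not run, as no rat promoters were at hand.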

Additional observations from a re-analysis of the deposited data

Results flagged for a closer look

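Dixon's test was applied to 108 group values, and 6 had a library far from the other libraries of its group, where chance gives about 1 in 20. In lung FFPE 1 yr, library 63 stood apart for Gc (304 CPM, nearest library 23.5 CPM) and Orm1 (97.0 CPM, nearest 3.80 CPM). In liver FFPE, library 79 had the lowest median over the 104 genes, at 654 CPM, with the nearest library at 739 CPM. In frozen lung Mug1 reached 5.96 CPM in library 52 (nearest 1.37 CPM), Ugt2b37 0.798 CPM in library 50 and LOC100912485 0.458 CPM in library 49, with the other 4 libraries of each of the last 2 genes at 0. A lone library with a count is always flagged when the others are at 0. The selection also used and capped the frozen lung values. The chance rate does not apply to these frozen lung flags, and nothing is read from them.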

How the results depend on the processing

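The selection gave 103 to 105 genes when 1 library was left out, 105 with all 6 frozen lung libraries, 106 with medians and 129 with TMM CPM over both tables, which held all 104. Genes seen in embedded lung numbered 86 (FR > FFPE) and 91 (FFPE 1 yr) both with TMM CPM and at 10 CPM, and 92 to 93 in each group with 1 library left out. Calls ranged from 68 to 83 in the liver test, 24 to 42 in the lung test and 103 to 104 between tissues (all 104 genes) when 1 library was left out. All counts between tissues in this section include genes among the 11 that had to differ. Their small spread was thus partly fixed in advance. Requiring a 2-fold change left 42 calls in liver and 22 in lung. Total-count scaling gave 22 calls in lung, and the 2 groups alone gave 22. Counts at least 2-fold lower and higher than in frozen liver were 15 and 18 (FR > FFPE) and 19 and 15 (FFPE) with total counts, and 14 and 18, and 19 and 15, as ratios of mean CPM. With 1 library left out they were 36 to 45 and 2 to 3, and 73 to 80 and 0. DESeq2 called 73 genes in liver (69 lower), 34 in lung (25 lower) and 103 between tissues. Chosen after seeing the data, the 72 genes with whole counts gave 49 calls in liver, 20 of 62 in lung and 72 between tissues, and 61 of them were seen in FFPE 1 yr, fewer because fewer genes entered. Thinning liver counts to the smallest library, also added later, gave 53 calls (44 lower, 9 higher). No paired analysis was possible because each rat library carries its own number and the labels tie none to another. Depth limits values near 5 CPM in the shallow FFPE libraries.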

Other observations

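Among the 805 genes below 5 CPM in both frozen tissues, mean CPM ranked alike in embedded liver and embedded lung, with a Spearman correlation of 0.90 between liver FR > FFPE and lung FR > FFPE and 0.89 between liver FFPE and lung FFPE 1 yr. Between the frozen tissues it was 0.66. Among the 104 liver-restricted genes the first of these was 0.21. In every group the lower quartile of the 805 genes was below 0.19 CPM, and a spread that starts near 0 raises a rank correlation. The values 0.90 and 0.21 are therefore not directly comparable. These are descriptions across genes and not tests.

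Markers of blood cells summed to 35970 to 52077 CPM in lung FR, 10512 to 27918 CPM in lung FR > FFPE and 25696 to 37596 CPM in lung FFPE 1 yr. Markers of exocrine pancreas and gut, 3 genes, summed to 1.90 to 5.96 CPM in lung FR, 92.3 to 176 CPM in lung FR > FFPE and 51.9 to 258 CPM in lung FFPE 1 yr, and to 37.4 to 80.0 CPM in liver FR. In liver, the 5 markers of bile duct epithelium summed to 135 to 167 CPM in FR, 307 to 989 CPM in FR > FFPE and 453 to 784 CPM in FFPE.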
